A study of Mus musculus with 14 samples.

Results

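Melanin is made inside melanosomes, lysosome-related organelles of pigment cells. The tyrosinase family of enzymes works in the organelle's lumen, an amyloid matrix of PMEL fibrils carries the pigment, and membrane transporters set the ionic conditions of the organelle. These genes are transcribed in the melanocyte lineage and are commonly used as markers of melanoma. The 10 genes described here were chosen by name from the 21138 genes of a count table: the enzymes Tyr, Tyrp1 and Dct, the structural proteins Pmel and Mlana, the transporters Slc45a2, Slc24a5 and Oca2, the receptor Gpr143 and the small GTPase Rab38. All 10 were in the table. Each is given as counts per 1000000 counts of the cell's or sample's total (CPM).

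The study sequenced RNA of 648 single mouse cells by Smart-seq2, to compare candidate tumor-leukocyte hybrid cells with tumor cells and leukocytes. There were 9 tumor-bearing samples, with 539 cells, from female C57BL/6J mice of 6-8 weeks that had been injected with B16F10, a C57BL/6J melanoma cell line carrying a fluorescent label. Flow sorting on tumor and host markers put these cells in the classes DP (450 cells, 9 samples), CTC (43 cells, 5 samples) and WBC (46 cells, 6 samples), from blood or lung. Control samples, 1 each, were labelled CDP (18 cells), Duplike (24 cells), PltLike (24 cells), B16F10 (22 cells) and WBC (21 cells). The B16F10 sample carries the cell type label CTC, and the other controls are labelled as naive female C57BL/6J mice aged 6-8 weeks. What the abbreviations DP, CDP, Duplike and PltLike stand for is not given in the sources used here. Labels do not say whether the 9 samples are separate animals. Tests used counts summed per sample, tissue and class, with sample and tissue as terms. The p-values measure the spread left between these sums, which may be technical, and blood and lung sums of a sample count separately.

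Clustering without the 10 genes and without other melanosome genes split the cells into 2 branches, of which the one that held the B16F10 cells is called tumor-high. It took 272 of 450 DP cells, 42 of 43 CTC and 0 of 46 WBC, and the other cells are called tumor-low. If the 46 WBC cells were independent, a WBC share of up to 7.71% would be allowed (exact binomial interval). They came from 6 samples, and spread between samples is not in that limit. The CTC outside the branch, a lung cell of replicate 2, had 11349 CPM of Dct, 3538 CPM of Pmel and 8.22 CPM of pan-leukocyte markers, with no count of Slc24a5, Gpr143 or Rab38. The 6 pan-leukocyte markers (Ptprc, Cd52, Cd53, Laptm5, Coro1a and Tyrobp) summed to a median of 1.19 CPM in tumor-high DP cells, 2.55 CPM in tumor-high CTC, 5994 CPM in tumor-low DP cells and 7289 CPM in WBC. All 18 CDP, 24 Duplike and 24 PltLike cells fell in the tumor-high branch, with the 10 genes summing to 26531 to 34189 CPM against 33273 CPM in B16F10, although their labels give naive mice as the source. They are therefore named by their labels and enter no test. The median depth per cell, in units of 1000000 counts, was 19.1 in tumor-high DP, 22.7 in tumor-high CTC, 4.93 in WBC and 1.05 in naive WBC.

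Promoter sequence is given as a description. All 45 pairs of the 10 genes were positively correlated across cells, and a link of sequence to that was not tested. RefSeq's promoter table (build GRCm38.p6) held an entry for 5 of the 10, and the 250 bases before the start were searched on both strands for CATGTG, an E-box of the form CANNTG, and for TCATGTGCT, the longer form known as the M-box. CATGTG or its reverse complement CACATG was in 5 of 5, against 12.3% of 32851 promoters of this length. TCATGTGCT, which contains CATGTG, was in Tyr, Tyrp1 and Dct, the enzyme genes, against 0.335% (110 promoters). The genes were chosen by name and only 5 of the 10 had an entry, so neither share is a test of enrichment. The windows around these matches are printed because they hold the sequence that the enzyme genes share, with the E-box in capitals and each written in the direction of its gene. The Slc24a5 window ends at the start site.
Tyr, chr7:87493516-87493545, minus strand: gaaaaagttagtCATGTGctttgcagaaga
Tyrp1, chr4:80834155-80834184, plus strand: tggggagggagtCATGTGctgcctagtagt
Dct, chr14:118052379-118052408, minus strand: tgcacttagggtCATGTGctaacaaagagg
Slc24a5, chr2:125068102-125068126, plus strand: aaggagactgctCACATGattcagc
Oca2, chr7:56239561-56239590, plus strand: ttgagcttgctaCACATGgctggaattttc
Dct held 2 matches of CATGTG, of which the one nearer the start is printed. The first base of the printed match lay 21 bases before the start in Tyr, 46 in Tyrp1, 150 in Dct, 13 in Slc24a5 and 186 in Oca2. The Tyrp1 window lies downstream of that gene's outermost start in GENCODE vM21, and positions here are counted to RefSeq's start. A match describes these letters only and says nothing of binding.

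Pigment genes were higher in both tumor-marked classes than in WBC. Comparing CTC with WBC asks how far the sorted tumor cells differ from leukocytes of the same samples. All 10 genes were higher in CTC, against 16% of 12595 genes tested (26.6% in either direction). No CTC sample overlapped any WBC sample for any of the 10. The share of all genes without such overlap was not counted, so this describes the 10 genes only. In DP, which mixes the branches, all 10 were also higher than in WBC, against 17.6% of the genes tested (20.5% in either direction, 2.91% lower), but DP and WBC samples overlapped for each of the 10. Within samples that held both classes, DP was higher in 5 of 6 for Mlana, Slc24a5 and Gpr143 and in 6 of 6 for the others. The cells of the DP sample of replicate 4 were all tumor-low. That sample had 1.21 CPM of Slc45a2, against 888 to 1752 CPM in the other 8 DP samples. Fitted log2 differences had a median of 7.16 in CTC and 6.05 in DP, where the medians of all genes were 0.74 and 1.17. In sums over at least 5 cells 5 of the 10 passed in DP against WBC, with a median difference of 6.80; Mlana, Tyr, Dct, Oca2 and Gpr143 did not (adjusted p = 0.0525 to 0.129, edgeR). In CTC against WBC 9 passed there and Dct did not (adjusted p = 0.0559, edgeR). Calls over the whole table also fell in both comparisons under this setting, with totals given in the section on processing. The share of all genes that they make up is not given. The 2 comparisons share the WBC sums, so they are not independent. Tests were edgeR's quasi-likelihood fits with Benjamini-Hochberg adjustment over all genes.

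**Figure D1:**
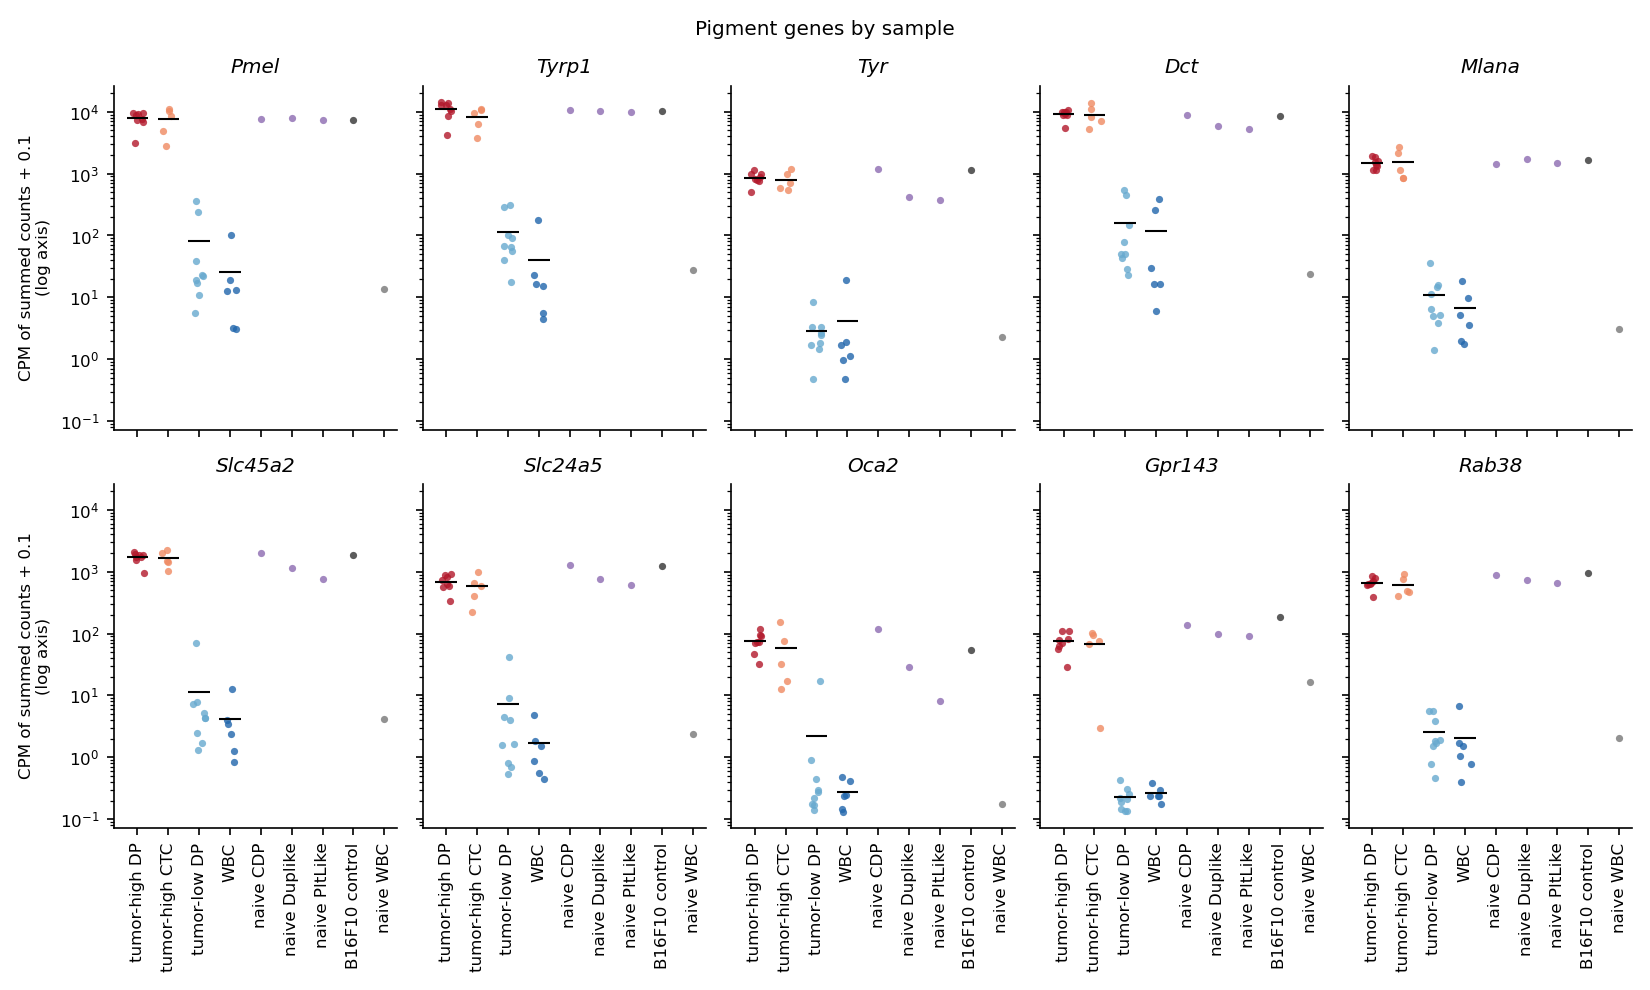
Each panel plots one pigment gene as CPM of the summed counts of a sample plus 0.1 (log axis), by group, with a point for each sample and a line at the mean of groups with several samples. All tumor-high DP samples lie above all WBC samples in every panel, and so do the controls labelled CDP, Duplike and PltLike. The branches come from clustering of expression, and the share of all genes separated in this way was not counted. PltLike lies near B16F10 for Pmel, Tyrp1 and Mlana and below it for genes such as Tyr (371 CPM against 1158 CPM) and Oca2 (7.99 CPM against 55.0 CPM).

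Among the enzymes, Tyr catalyses the first, rate-limiting steps of melanin synthesis. In tumor-high DP the 8 samples had a lowest Tyr level of 509, a median of 841 and a highest of 1127 CPM. The 5 tumor-high CTC samples, replicates 1, 2, 3, 5 and 6, had 987, 589, 534, 1171 and 709 CPM. WBC ranged between 0.384 and 18.9 CPM with a median of 1.30 CPM over 6 samples. The tumor-high groups overlapped each other and neither overlapped WBC. Tests against WBC used the whole classes, and tumor-high DP alone was not tested against WBC. Samples of the whole DP class, tumor-low cells included, had 1.76 to 852 CPM and overlapped WBC. The log2 difference was 5.91 ± 1.12 (SE) in DP against WBC (adjusted p = 0.00107, edgeR, higher in 6 of 6 samples). It was 6.96 ± 1.22 in CTC against WBC (adjusted p = 0.000157, edgeR, 5 of 5). In sums over at least 5 cells the difference in DP against WBC was 6.39 ± 1.91 (adjusted p = 0.0784, edgeR).

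Tyrp1, which stabilises tyrosinase and takes part in eumelanin synthesis, was the most abundant of the 10 in tumor-high DP. Its level there had a lowest value of 4211, a median of 12048 and a highest of 14574 CPM. The tumor-high CTC samples had 10696, 6383, 9628, 11185 and 3804 CPM, and WBC ran between 4.30 and 175 CPM with a median of 15.8 CPM. The low tumor-high samples, 4211 CPM in DP and 3804 CPM in CTC, were both replicate 6, and the highest WBC sample was replicate 5. Tyrp1 gave the smallest p-values of the 10. The whole DP class, tumor-low cells included, had 90.6 to 12709 CPM and overlapped WBC. Its log2 difference from WBC was 6.16 ± 0.76 (adjusted p = 1.84e-05, edgeR, 6 of 6 samples). In CTC against WBC the difference was 7.09 ± 0.82 (adjusted p = 8.58e-07, edgeR, 5 of 5).

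Dct, dopachrome tautomerase, acts after tyrosinase and showed the smallest of the 10 differences. Tumor-high DP had a lowest value of 5485, a median of 9454 and a highest of 10821 CPM, and the tumor-high CTC samples had 10934, 7005, 8187, 13712 and 5176 CPM. WBC had 5.96 to 384 CPM with a median of 22.9 CPM, and the samples of 384 CPM (replicate 2) and 262 CPM (replicate 5) stood above the other 4. The whole DP class, tumor-low cells included, had 50.8 to 9518 CPM and overlapped WBC. Its log2 difference from WBC was 4.94 ± 0.88 (adjusted p = 0.000648, edgeR). In CTC against WBC the difference was 5.77 ± 0.94 (adjusted p = 7.54e-05, edgeR). Neither call held in sums over at least 5 cells, with 3.91 in DP against WBC (adjusted p = 0.129, edgeR) and 4.72 in CTC against WBC (adjusted p = 0.0559). Of the WBC counts of Dct, 48.7% came from 1 cell.

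Pmel forms the fibril matrix of the melanosome, and Mlana is an integral membrane protein of melanosomes that interacts with it. Pmel in tumor-high DP had a lowest value of 3072, a median of 8307 and a highest of 9618 CPM, the tumor-high CTC samples had 11219, 4913, 8460, 10453 and 2765 CPM, and WBC ran between 3.0 and 101 CPM. Mlana averaged 1486 ± 296 CPM in tumor-high DP (SD, n = 8), 1534 ± 835 CPM in tumor-high CTC (n = 5) and 6.62 ± 6.30 CPM in WBC (n = 6). For Pmel, as for Tyrp1, the lowest tumor-high samples were replicate 6. In CTC against WBC the log2 difference was 7.23 ± 1.15 for Pmel and 6.6 ± 1.03 for Mlana (adjusted p = 5.46e-05 and 4.58e-05, edgeR).

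The transporters spanned a wide range of levels. Slc45a2, a proton-coupled sugar transporter of melanosomes, averaged 1710 ± 347 CPM in tumor-high DP, 1637 ± 472 CPM in tumor-high CTC and 4.04 ± 4.41 CPM in WBC. Slc24a5, a potassium-dependent sodium-calcium exchanger, averaged 681 ± 192 CPM in tumor-high DP, 577 ± 294 CPM in tumor-high CTC and 1.58 ± 1.62 CPM in WBC. Oca2, which is associated with melanosomal chloride conductance, averaged 75.1 ± 27.4 CPM in tumor-high DP, 57.9 ± 58.6 CPM in tumor-high CTC and 0.179 ± 0.146 CPM in WBC. Oca2 was the only transporter below 100 CPM on average in tumor-high DP, and its CTC samples, 153, 12.5, 74.8, 32.3 and 16.9 CPM, were spread widely. Log2 differences in CTC against WBC were 7.55 ± 1.11 for Slc45a2, 7.44 ± 1.29 for Slc24a5 and 7.06 ± 1.56 for Oca2 (adjusted p = 2.40e-05, 0.000146 and 0.00148, edgeR).

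Gpr143, a melanosomal G-protein-coupled receptor, had low levels. It averaged 74.7 ± 27.1 CPM in tumor-high DP, 68.9 ± 39.2 CPM in tumor-high CTC and 0.161 ± 0.0739 CPM in WBC, and its log2 difference in CTC against WBC, 7.86 ± 1.76 (adjusted p = 0.00167, edgeR), was the largest of the 10 estimates with the largest SE. Replicate 6 held the lowest CTC level, at 2.85 CPM, against 68.4 to 102 CPM in the other 4. Rab38, a GTPase that directs tyrosinase-family cargo to melanosomes, averaged 661 ± 138 CPM in tumor-high DP, 612 ± 227 CPM in tumor-high CTC and 1.93 ± 2.35 CPM in WBC. Its log2 difference in CTC against WBC was 7.33 ± 1.22 (adjusted p = 9.45e-05, edgeR).

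Corrected for exon length (CPM per kb), the order in tumor-high DP was Tyrp1 at 3898, Pmel at 3400, Dct at 1548, Mlana at 1402, Slc45a2 at 574, Rab38 at 418, Slc24a5 at 292, Tyr at 120, Gpr143 at 37.4 and Oca2 at 19.0. Each gene was above its follower in 8 of 8 samples except Tyrp1 over Pmel and Dct over Mlana, in 6 of 8 each. In tumor-high CTC Pmel (3302 CPM per kb) preceded Tyrp1 (2947), with Pmel above in 3 of 5 samples, so these neighbours do not differ beyond their spread. In GENCODE vM21 (GRCm38) the genes lie at chr7:87424771-87493512 (Tyr), chr4:80834123-80851719 (Tyrp1), chr14:118012790-118052244 (Dct), chr10:128704195-128720238 (Pmel) and chr19:29697824-29708634 (Mlana). The others lie at chr15:11000721-11029233 (Slc45a2), chr2:125068124-125088677 (Slc24a5), chr7:56239760-56536518 (Oca2), chrX:152781921-152808646 (Gpr143) and chr7:88430273-88491572 (Rab38), with Tyr and Dct on the minus strand and the rest on the plus strand. Pmel and Dct overlap genes on the opposite strand in GENCODE vM21 (Cdk2 and Dgka, and 4930435M08Rik), as do Slc24a5 (Myef2), Oca2 (Gm44506) and Rab38 (the pseudogene Gm15661). The sources used here do not state that counting used strand, so reads shared with those genes cannot be told apart.

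Within the tumor-high branch no pigment gene passed the test between DP and CTC, against 0.0337% of 11856 genes. The 10 log2 differences had a median of 0.07, beside 0.12 for all genes, and ranged from -0.01 for Dct to 1.11 for Oca2. Intervals were narrow for the abundant genes: Pmel differed by 0.03 (95% interval -0.28 to 0.33), Dct by -0.01 (-0.32 to 0.30) and Tyrp1 by 0.09 (-0.25 to 0.43, adjusted p = 0.998, edgeR). They were wide for Oca2 (-0.20 to 2.42) and Gpr143 (-0.37 to 1.55). Samples that held both classes were higher in DP for Tyrp1 in 5 of 5, for Slc24a5 and Oca2 in 4 of 5, for Pmel, Mlana, Dct and Slc45a2 in 3 of 5 and for Tyr, Gpr143 and Rab38 in 2 of 5. Of the 4 genes that passed over the whole table none was a pigment gene. At an unadjusted p below 0.05 there were 711, and DESeq2 called 786.

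**Figure D2:**
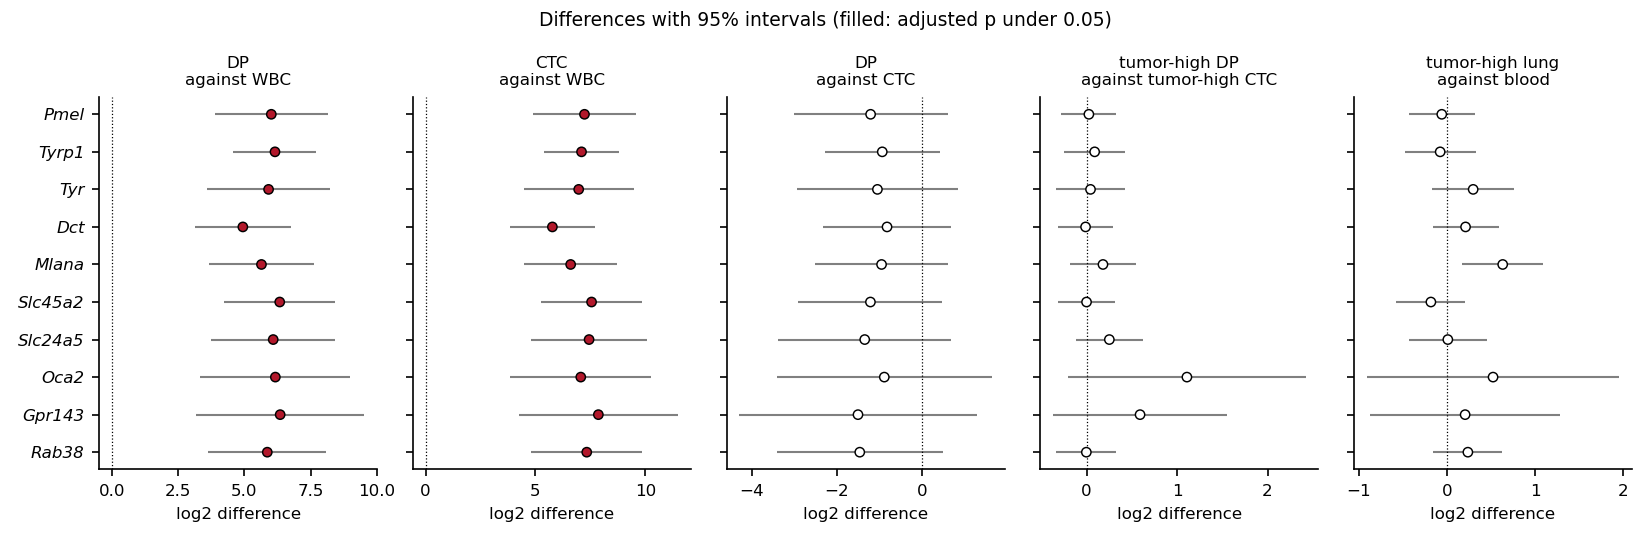
Each panel plots the fitted log2 difference of the 10 genes (x axis) with its 95% interval for 1 comparison, filled where the adjusted p was under 0.05. All intervals exclude 0 in the 2 leftmost panels, and those of the tumor-high DP and CTC comparison lie around 0, widest for Oca2 and Gpr143.

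DP as a whole class lay below CTC, with log2 differences of -0.82 to -1.51 (median -1.13, all genes 0.21), and none passed (0 of 10, against 5.85% of genes, each of them higher in DP). The intervals ran from -4.29 to 1.64. In blood cells alone the 10 differences turned positive, from 0.04 to 0.88, and none passed there either. The DP class contained 178 tumor-low cells, and lung DP of replicates 1, 2 and 4 held 0 tumor-high cells.

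Lung and blood tumor-high cells were compared within samples and classes, in 5 lung and 12 blood sums. No gene of 11856 passed, pigment genes included, whereas 1433 fell below 0.05 without adjustment and 794 were called by DESeq2. Mlana came nearest: lung sums averaged 1962 ± 826 CPM (SD, n = 5) and blood sums 1349 ± 408 CPM (n = 12). Its log2 difference of 0.63 ± 0.21 had an adjusted p = 0.236 (edgeR) and was positive in 4 of 4 pairs. DESeq2 called it (adjusted p = 0.0248), without replicate 5 the difference was 0.19, and with cells assigned by pan-leukocyte share it was -0.32. The other 9 differences lay between -0.18 and 0.52.

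The control samples have no replicates and are described only. Pan-leukocyte markers summed to a median of 306 CPM in CDP, 265 CPM in Duplike, 0.196 CPM in PltLike, 0.647 CPM in B16F10 and 9044 CPM in naive WBC. The 10 genes summed to 34189 CPM in CDP, 29297 CPM in Duplike, 26531 CPM in PltLike, 33273 CPM in B16F10 and 94.5 CPM in naive WBC. For comparison, the sum was 33480 ± 7928 CPM in tumor-high DP (n = 8) and 30189 ± 11730 CPM in tumor-high CTC (n = 5). Tyr was 1174 CPM in CDP, 425 CPM in Duplike, 371 CPM in PltLike and 1158 CPM in B16F10, so the Duplike and PltLike samples lay below every tumor-high DP sample (509 CPM or more). Oca2 was 119 CPM in CDP, 28.3 CPM in Duplike, 7.99 CPM in PltLike and 55.0 CPM in B16F10. Dct was 8852 CPM in CDP, 5953 CPM in Duplike, 5229 CPM in PltLike and 8465 CPM in B16F10. B16F10 had 1215 CPM of Slc24a5 and 184 CPM of Gpr143, above every tumor-high DP sample (at most 910 and 110 CPM) and every CTC sample (at most 1006 and 102 CPM). CDP, with 1270 and 140 CPM, was also above all of these, whereas Duplike and PltLike were not.

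The spread between single tumor-high cells was described in 314 tumor-high DP and CTC cells, in log2(CPM + 1) after removing each sample and tissue's mean. The SD was 0.78 for Dct, 0.88 for Slc45a2, 0.94 for Mlana, 1.00 for Rab38, 1.28 for Tyrp1, 1.34 for Tyr, 1.55 for Pmel and 1.70 for Slc24a5. These 8 genes had counts in 314 of 314 cells and were less variable than most genes, whose SD had a median of 2.33 over 8744 genes, with 10% of genes below 1.07. Oca2 had counts in 84.4% of cells and Gpr143 in 82.5%, with SDs of 2.95 and 2.72. Abundant genes generally vary less on this scale, and the 8 genes lay above 97.8% of genes in median level. Of the variance, 65.2% (Tyrp1) to 88.3% (Oca2) lay within a sample and tissue.

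**Figure D3:**
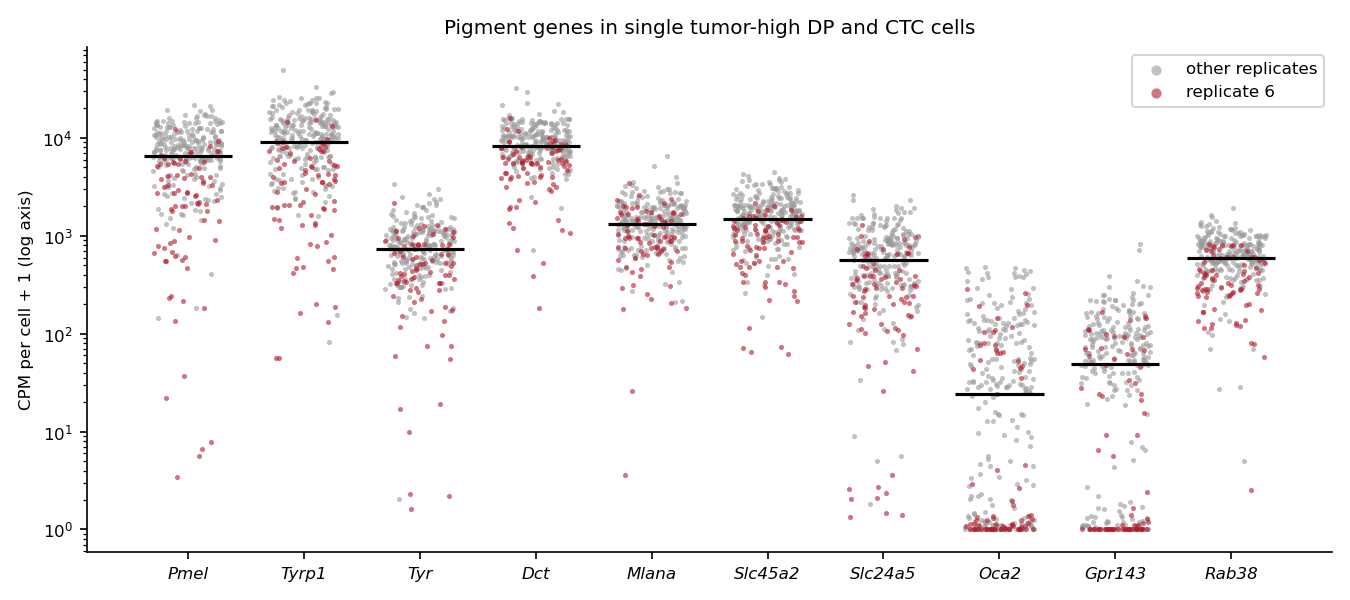
Each point is a tumor-high DP or CTC cell, plotted as CPM + 1 (log axis) for each pigment gene, with lines at the medians and cells of replicate 6 in red. Low values of Pmel, Tyrp1 and Dct come mostly from replicate 6, and Oca2 and Gpr143 have many cells at 0.

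Replicate 6 held most of the pigment-low tumor-high cells. Cells whose 10 genes summed to less than 10000 CPM numbered 25 of 314, and 23 of these were in replicate 6: 22 of 73 blood DP cells (30.1%) and 1 of 5 blood CTC. In the 25 cells the median was 564 CPM for Pmel, 822 CPM for Tyrp1, 590 CPM for Mlana and 1953 CPM for Dct, against 7129, 9729, 1393 and 8539 CPM in the other 289. The 25 cells had a median depth of 16.7 (in 1000000 counts) and 8400 detected genes, against 19.5 and 8602, and pan-leukocyte markers summed to 1.22 CPM against 1.25 CPM. They were defined by their pigment genes, so these levels describe them and are not tested. Without replicate 6 the SD fell to 1.00 for Pmel and 1.03 for Tyrp1, and the median SD of the 10 genes was 0.993 instead of 1.31, a check chosen after the data were seen.

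Across the same 314 cells the 10 genes varied together. All 45 pairs had a positive Spearman rho, from 0.13 (Oca2 and Rab38) to 0.68 (Pmel and Slc24a5) with a median of 0.39, whereas the genes' rho with 8734 other genes had a median of 0.006 and a 99th percentile of 0.235. Sample and tissue means were removed, but library depth, which differed between cells, was not adjusted for. The other genes were not matched to the 10 for level. Without replicate 6 all 45 remained positive, with a median of 0.36. The 8 other genes with the highest mean rho were Tspan10 (0.41), Bace2, Fbln5, Atp6v0c, Trpm1, Gsta2, C2 and Cd63 (0.32). The summed pigment level had a rho of 0.14 with depth, -0.03 with detected genes and -0.19 with the pan-leukocyte share.

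**Figure D4:**
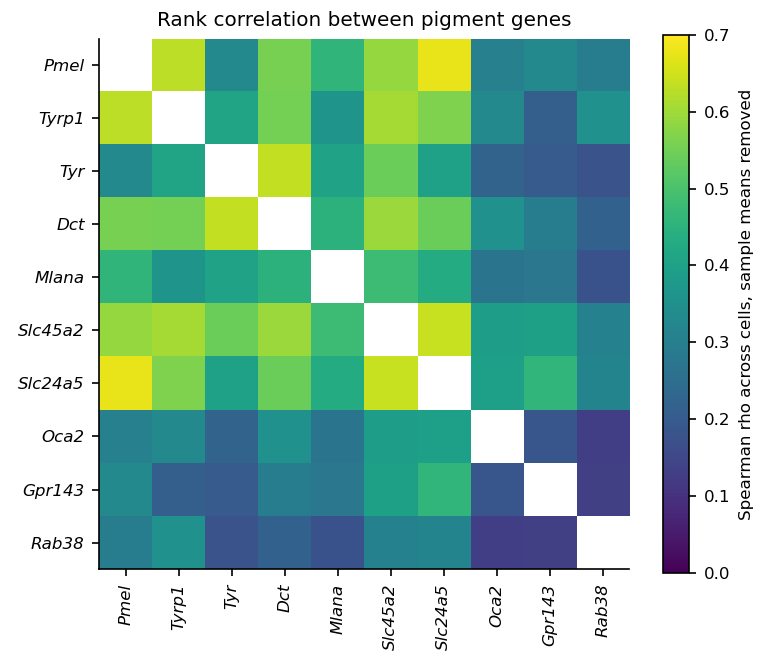
Heat map of Spearman rho between the 10 genes across 314 tumor-high cells after removing sample and tissue means, with the colour scale from 0 to 0.7. All 45 pairs are positive; Rab38 has the weakest rows, and Pmel with Slc24a5 is the strongest pair.

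Low counts of the pigment genes were found in nearly all cells labelled WBC. Not all of these had leukocyte markers: the pan-leukocyte sum ran from 5.27 to 17130 CPM, 3 lung WBC were below 500 CPM, and the highest sums of lung epithelium and fibroblast markers in a WBC cell were 335461 and 39755 CPM, with medians of 0. The part of these cells in the values was not tested. Of 46 WBC cells, 97.8% had a count of Tyrp1, 100% of Dct, 91.3% of Pmel, 80.4% of Rab38, 43.5% of Oca2 and 41.3% of Gpr143, and after thinning each of 40 cells to 1000000 counts the shares were 90%, 100%, 85.0%, 67.5%, 20% and 17.5%. Levels were low: the median over WBC cells was 30.3 CPM for Tyrp1, 41.2 CPM for Dct and 21.9 CPM for Pmel, or 0.337%, 0.502% and 0.337% of the median over the 314 tumor-high cells. Over the 8 abundant genes this share ran from 0.258% (Rab38) to 0.502% (Dct). In tumor-low DP it ran from 0.186% to 0.474%, and in naive WBC, which are shallower, from 0.128% to 0.285%. Tumor-low DP cells were also mixed, with pan-leukocyte sums from 0.728 to 14418 CPM. Their highest sums of fibroblast and endothelium markers were 62179 and 3167 CPM, with medians of 0. Conversely, the 6 pan-leukocyte genes in tumor-high CTC stood at 0.0237% to 0.0423% of their WBC medians.

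Relative to other genes abundant in tumor-high cells, these shares were among the lowest in WBC and tumor-low DP but not in naive WBC. The genes compared were chosen by their tumor-high level, where pigment genes are high. Their ranks are therefore a description and not a test. Over 241 genes with a tumor-high median of at least 500 CPM, the share in WBC had a median of 27.1% and a 10th percentile of 0.822%, and 8 of the 8 pigment genes in that set stood among the lowest 20. In tumor-low DP 7 of 8 did (Dct did not), where all 241 had a median of 34.3%. In naive WBC 0 of 8 did, where all 241 had a median of 1.93%. Dct made up 44.2% ± 26.3 of the sum of the 10 genes in WBC (SD, n = 6), against 27.8% ± 3.15 in tumor-high DP (n = 8). In WBC of replicate 2 its share was 95.4%, and in the other 5 WBC samples 22.0% to 43.7%. Pmel made up 17.2% ± 9.17 in WBC and 23.0% ± 2.76 in tumor-high DP.

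**Figure D5:**
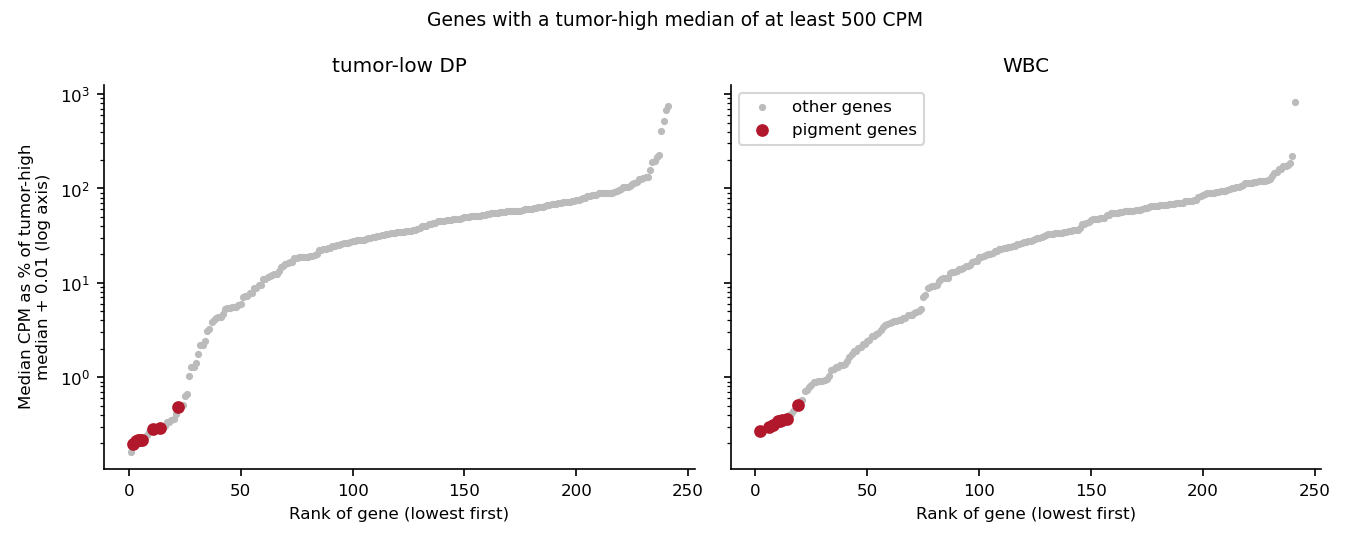
Genes with a tumor-high median of at least 500 CPM are ranked by their median in tumor-low DP (left) or WBC (right) as a percentage of the tumor-high median plus 0.01 (log axis). The 8 pigment genes (red) lie at the low end, at 0.186% to 0.502%.

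These low counts were uneven between cells and samples. The 10 genes summed to a median of 126 CPM per WBC cell (4.04 to 3972), with 4 of 46 cells above 1000 CPM, and to 125 CPM per tumor-low DP cell (0.383 to 9479), with 26 of 178 above 1000 CPM. Replicate 5 WBC had medians of 507 CPM in blood and 447 CPM in lung, whereas replicate 4 had 20.4 CPM. The highest cell, a lung tumor-low DP cell of replicate 3, had a depth of 0.284 (in 1000000 counts), 7921 CPM of Pmel and 5079 CPM of pan-leukocyte markers. In naive WBC 98.2% of the 434 Gpr143 counts came from 1 cell. Whether free RNA from tumor cells contributes to these counts was not tested.

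Between tumor-low DP and WBC 0 of 10 pigment genes passed the test, against 0% of 9834 genes (776 at an unadjusted p under 0.05, and 1751 by DESeq2). Log2 differences ran from 0.53 to 1.48 with a median of 0.70, beside 0.74 for all genes. The 95% intervals all included 0, from the narrowest, -0.80 to 2.09 for Dct, to the widest, -2.24 to 3.34 for Oca2. Cells were also assigned by whether the pan-leukocyte markers reached 500 CPM, and 41 of all 648 cells, controls included, changed branch. With that assignment the median of the 10 became 3.94, and 0 of 10 passed.

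Other genes of the melanosome were taken from 4 lists chosen with earlier results of these data known. Over all genes tested in CTC against WBC, 16% were higher and 10.6% lower. Of 7 regulators, 4 were higher and 1 lower in CTC than in WBC. The higher were Sox10 (7.13 ± 1.23) and Pax3 (6.59 ± 1.23), transcription factors of the melanocyte lineage, Mc1r (7.14 ± 1.11), the melanocortin receptor, and Tfap2a, a transcription factor named after its value was seen. Ednrb, the endothelin receptor B, averaged 0.0763 ± 0.0386 CPM in CTC (n = 5) and 458 ± 316 CPM in WBC (n = 6), and was lower in CTC (adjusted p = 3.70e-05, edgeR). Mitf, at 157 ± 64.4 CPM in CTC and 19.9 ± 33.1 CPM in WBC, missed the threshold (adjusted p = 0.0773, edgeR) and was also named after its value was seen.
Of 11 other melanosome proteins 3 were higher in CTC: Bace2 (7.0 ± 0.94), Trpm1 (6.88 ± 1.06) and Gpnmb (4.52 ± 0.90). Of 18 cargo-sorting genes 2 were higher, Hps6 and Bloc1s5, and 1 was lower, Rab32, and of 6 transport genes 1, Mlph (7.44 ± 1.21), was higher, shares near those over all genes. The list medians were 6.59, 1.77, 0.62 and 1.61, beside 0.74 for all genes.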

How the data were processed

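The authors deposited a table of raw read counts per gene and cell. Per the submitters' processing notes, Trim Galore, HISAT2, SAMtools, featureCounts, BWA and Picard were used with build mm10, with no versions or roles stated. Even values made up 56.7% of nonzero counts, which leaves unknown whether 1 count is 1 fragment. The 95% intervals of log2 differences come from the edgeR fits and cover the spread left between sums. The exact binomial interval treats cells as independent. Classes and tissues come from the cell names, replicates from the labels. Sums over the cells (2 or more) of each class in each tissue of a sample were tested with edgeR 4.0.16 in R 4.3.3 (quasi-likelihood, TMM, low-count filter, Benjamini-Hochberg over all genes, threshold 0.05), with class, tissue and sample as terms. The sample is a block because the classes were sorted from the same samples; deviations of same-sample sums of different classes had a median correlation of 0.039 over 41 pairs, against -0.0143 over 246 other pairs. Branches came from Ward clustering on 15 principal components of 2000 variable genes, leaving out the 10 genes and the 4 lists. Fits were tested on simulated data. CPM used the cell's or sum's total count, and thinning drew 1000000 counts per cell. Gene positions and lengths are from GENCODE vM21. The 10 genes and the lists were chosen with earlier results of these data known. All 10 are named; of each list, up to 4 genes with the smallest p in CTC against WBC are named, with exceptions stated. Alternatives were DESeq2 1.42.0, its size factors, no filter, no block, sums over at least 5 cells, equal totals, blood only, other cell assignments and leaving out each replicate. Matched DNA data were not analysed here.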

Additional observations from a re-analysis of the deposited data

Results flagged for a closer look

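In 15 of 60 sets of a gene and a group, 1 sample stood apart from the others by Dixon's criterion, which chance alone meets in about 1 in 20 sets; the sets share samples and are not independent. In tumor-high DP, replicate 6 was lowest for Pmel (3072 CPM, the others 6713 to 9618), Dct (5485 CPM, the others 8831 to 10821) and Slc45a2 (948 CPM, the others 1543 to 2066). In DP as a whole, replicate 4 was lowest for Slc45a2, at 1.21 CPM. In tumor-low DP, replicate 5 was highest for Mlana (35.8 CPM), Tyr (8.27 CPM), Slc45a2 (69.9 CPM) and Oca2 (17.0 CPM), and replicate 9 was highest for Slc24a5 (41.6 CPM). Of the Oca2 counts in tumor-low DP, 90.2% came from 1 cell. In WBC, replicate 5 was highest for Pmel (101 CPM, the others 3.0 to 19.2), Tyr (18.9 CPM), Tyrp1 (175 CPM, the others 4.30 to 22.8), Slc45a2 (12.7 CPM), Slc24a5 (4.70 CPM) and Rab38 (6.61 CPM).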

How the results depend on the processing

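The 10 genes kept their direction in DP and in CTC against WBC under every alternative run, and their calls in each fit that left out a replicate. In sums over at least 5 cells, which use fewer sums, 5 of 10 passed in DP against WBC and 9 in CTC against WBC. Calls over the whole table also fell under this setting, to the totals given below. The share of all genes that they make up is not given, so these counts are not set against it. The cause of the shifts given here was not tested.
Genes called over the whole table moved more. DESeq2 called 5276 in DP against WBC, 5825 in CTC against WBC, 1468 in DP against CTC, 786 in tumor-high DP against CTC, 794 in lung against blood (1 of the 10) and 1751 in tumor-low DP against WBC. With sums over at least 5 cells the first 3 became 294, 1281 and 160. Blood cells alone gave 336 in DP against CTC and 2 in tumor-high DP against CTC. No filter gave 16 in lung against blood and 14 in tumor-low DP. Assignment by pan-leukocyte share gave 0 in tumor-high DP against CTC, 2 in lung against blood and 1 in tumor-low DP. Leaving out a replicate gave 1599 (without replicate 5) to 2580 in DP against WBC, 361 (without replicate 3) to 725 in DP against CTC, 0 to 4 in tumor-high DP against CTC, 0 to 32 (without replicate 7) in lung against blood and 0 to 1 in tumor-low DP.
Without the replicate block, which pairs the classes of a sample, 54 genes passed in tumor-high DP against CTC and 19 in lung against blood; the count among the 10 changed in none of the 6 comparisons. Differences that turned sign there, none called, were Rab38 (0.013) in tumor-high DP against CTC, Pmel (0.17), Tyrp1 (0.28) and Slc45a2 (0.029) in lung against blood, and Tyr (-0.58) and Gpr143 (-0.020) in tumor-low DP against WBC.
Other differences that turned sign were also not called. In DP against CTC these were, in blood alone, Pmel 0.11, Mlana 0.20, Tyr 0.16, Tyrp1 0.25, Dct 0.11, Slc45a2 0.036, Slc24a5 0.23, Oca2 0.88, Gpr143 0.43 and Rab38 0.070, and Oca2 0.45 in sums over at least 5 cells. In tumor-high DP against CTC they were Dct 0.083 and Rab38 0.046 in blood; Pmel -0.0028, Tyr -0.055, Slc45a2 -0.11 and Rab38 0.15 over at least 5 cells; Pmel -0.10, Tyr -0.017, Tyrp1 -0.055 and Slc45a2 -0.091 with equal totals per cell; Slc45a2 -0.019 with DESeq2 and its size factors and -0.0014 with no filter. Assignment by pan-leukocyte share gave Pmel -0.26, Mlana -0.063, Tyr -0.11, Tyrp1 -0.19, Slc45a2 -0.18, Slc24a5 -0.37 and Gpr143 -0.61 there, and in lung against blood Mlana -0.32, Tyr -0.54, Dct -0.58, Slc24a5 -1.48, Oca2 -0.97, Gpr143 -1.71 and Rab38 -1.21. Lung against blood also turned for Slc24a5 (-0.17), Oca2 (-0.31) and Rab38 (-0.039) over at least 5 cells and for Slc24a5 (-0.17) with equal totals. Tumor-low DP against WBC turned for Dct (-0.49) over at least 5 cells and Oca2 (-0.50) in blood.
Leaving out replicates, tumor-high DP against CTC ranged from -0.086 to 0.085 for Pmel, -0.064 to 0.12 for Tyr, -0.0042 to 0.13 for Tyrp1, -0.12 to 0.075 for Dct, -0.073 to 0.040 for Slc45a2 and -0.11 to 0.073 for Rab38. Lung against blood ranged from -0.26 to 0.041 for Pmel, -0.27 to 0.10 for Tyrp1, -0.42 to 0.040 for Slc45a2, -0.19 to 0.088 for Slc24a5, -0.11 to 0.36 for Gpr143 and -0.050 to 0.48 for Rab38, and tumor-low DP against WBC from -0.24 to 1.61 for Oca2.
Thinned to 1000000 counts, 67.1% of tumor-high cells had a count of Oca2 and 71.6% of Gpr143. In WBC 89.1% had at least 10 counts of Tyrp1 (90% a count after thinning) and 43.5% of Rab38 (67.5%). As means over cells the 10 genes summed to 33624 CPM in CDP, 29149 CPM in Duplike, 26687 CPM in PltLike, 33205 CPM in B16F10 and 122 CPM in naive WBC.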
